A study of Mus musculus with 8 samples.

Results

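The let-7 and miR-98 family was followed across sorted cells of the mouse thymus. Its members were taken by name, as the 9 mature miRNAs mmu-let-7a, mmu-let-7b, mmu-let-7c, mmu-let-7d, mmu-let-7e, mmu-let-7f, mmu-let-7g, mmu-let-7i and mmu-miR-98 (the species prefix is dropped from here on), out of 1040 mouse miRNAs on the array. All 9 members passed the filter on dim probes, which kept 309 of the 1040.

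RNA came from 3 sorted populations of 4-week-old female wildtype NOD mice, a strain prone to autoimmune diabetes. The paper's methods give this age, and its figure legends for these sorts a slightly wider range. Each isolation pooled the thymi of 10 to 12 mice. CD45+ cells are haematopoietic, mostly thymocytes, and were sorted as CD45+ EpCAM- (3 arrays). Medullary thymic epithelial cells (mTECs, 3 arrays) were CD45- EpCAM+ MHC II+ Ly51-, and cortical thymic epithelial cells (cTECs, 2 arrays) differed from them in being Ly51+. The comparisons asked which miRNAs set thymic epithelium apart from haematopoietic cells, and medulla apart from cortex, with CD45+ cells as the reference.

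let-7 miRNAs are cut from hairpin precursors and guide Argonaute proteins to messages that pair with their seed, bases 2 to 8 of the mature strand. They are known for restraining growth and stem cell genes such as Hmga2, Ras genes and Lin28, and the LIN28 proteins in turn block the maturation of most let-7 precursors. In the thymus, let-7 is known for holding down PLZF, a transcription factor of natural killer T cells.

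The mature sequences are shown because the members share 1 seed and differ in only a few other bases, which bears on how far 1 probe can tell them apart. They are from RefSeq (GRCm38.p6), 5′ to 3′, with the seed in capitals.
let-7a: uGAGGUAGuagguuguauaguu
let-7b: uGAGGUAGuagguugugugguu
let-7c: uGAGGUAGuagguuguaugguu
let-7d: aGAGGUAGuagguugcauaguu
let-7e: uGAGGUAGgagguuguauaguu
let-7f: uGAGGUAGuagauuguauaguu
let-7g: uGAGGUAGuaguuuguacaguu
let-7i: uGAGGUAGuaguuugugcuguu
miR-98: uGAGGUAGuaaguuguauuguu

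All 9 were found in RefSeq, all are 22 bases long, and all carry the seed GAGGUAG. Positions were counted from 1 at the 5′ end, with the base of let-7a first. From let-7a, let-7c differs by A19G, let-7e by U9G and let-7f by G12A, a single base each. let-7b differs by A17G and A19G, let-7d by U1A and U16C, let-7g by G12U and U18C, and miR-98 by G11A and A19U. let-7i differs by 4 bases, G12U, A17G, U18C and A19U. From let-7b, let-7c differs by G17A alone.

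Each probe is the full complement of its mature strand, so members 1 base apart have probes 1 base apart. For the pairs separated by 1 base, the probe stretches are given 5′ to 3′, with bases that differ from the let-7a probe in capitals.
let-7a probe: aactatacaacctactacctca
let-7b probe: aacCaCacaacctactacctca
let-7c probe: aacCatacaacctactacctca
let-7e probe: aactatacaacctCctacctca
let-7f probe: aactatacaaTctactacctca

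Signal shared between probes this alike was not tested, and levels of different members are therefore not compared. Among the 1040 mouse probes, 10 matched a miRNA with this seed: the 9 members and miR-1961 (tGAGGTAGtagttagaa, in DNA letters, the complement of its probe). miR-1961 was well above background on too few arrays to be tested.

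The 12 genes for these miRNAs lie on 7 chromosomes (GRCm38.p6). let-7d, let-7f and let-7a share a run on chromosome 13, where Mirlet7d (chr13:48536012-48536114), Mirlet7f-1 (chr13:48537829-48537917) and Mirlet7a-1 (chr13:48538179-48538272) sit on the minus strand with gaps of 1714 and 261 bp. let-7c and let-7b share a run on chromosome 15, where Mirlet7c-2 (chr15:85706603-85706697) and Mirlet7b (chr15:85707319-85707403) are 621 bp apart within the long non-coding RNA gene Lncppara. Mirlet7f-2 (chrX:151912346-151912428) and Mir98 (chrX:151913214-151913321) are 785 bp apart within Huwe1. Mirlet7g (chr9:106178840-106178927) lies within Wdr82, and Mirlet7i (chr10:122985640-122985724) lies within no other annotated gene. The remaining copies, Mirlet7c-1 on chromosome 16, Mirlet7e on chromosome 17 and Mirlet7a-2 on chromosome 9, have genes of the miR-99/100 and miR-125 families beside them. let-7a, let-7c and let-7f each have 2 genes, and a probe reads their products as 1 signal.

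Values are scaled signals, the brightness of a probe relative to a reference level of its own array. That level is the 75th percentile of the 65 mouse probes detected on all 8 arrays, and 8 of these probes are members. Detected here means well above background by the scanner software. That percentile was 2910 and 1364 on the cTEC arrays before scaling and between 4213 and 11503 on the others, so the cTEC arrays were the dimmest. Signals under a common floor of 621, the detection limit of cTEC replicate 2, were set to the floor before taking log2. This is the highest detection limit of any array. It was set anew under each alternative scaling of the processed signals, so floor and scaling change together there. Blood miRNAs were brightest on CD45+ arrays, where the summed signal over 6 markers was 20985 to 25126, against 3703 to 4899 on cTEC arrays and 1985 to 2500 on mTEC arrays. The 6 were miR-451, miR-223, miR-181a, miR-150 and both strands of miR-142. Of these, miR-451 was not detected on any of the 8 arrays, and 4, with it, on no cTEC array. The 7 epithelial markers, miR-200a, miR-200b, miR-200c, miR-141, miR-429, miR-205 and miR-203, summed to 623 to 704, 4442 to 8620 and 36800 to 39058 in the same order. The 6 markers of mesenchyme and endothelium, miR-143, miR-145, miR-126-3p, miR-199a-3p, miR-199a-5p and miR-214, summed to 437 to 561, 3245 to 7732 and 6710 to 6946. miR-199a-3p and miR-199a-5p were detected on no array, and miR-214 on mTEC replicates 2 and 3 alone. The epithelial sorts thus also carried signal of that list, for the most part from miR-143, miR-145 and, in cTECs, miR-126-3p. miR-126-3p read 2615 and 1013 on cTEC arrays. On mTEC arrays it read 285 to 503, under the floor, and on CD45+ arrays 189 to 260. The part of other cell types in the let-7 values was not tested, and in sorted bulk RNA, fewer cells of a type and less RNA per cell cannot be told apart.

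The 7 members other than let-7e and miR-98 were above the floor on all 8 arrays. They had 4 or 5 spots each per array, and the SD between spots of a probe on an array was 0.02 to 0.35 on the log2 scale. let-7e was detected on all 8 arrays, and its signal averaged over spots passed the common floor only on cTEC replicate 2. On cTEC replicate 1 it was 599, but spots were floored before they were averaged, which left a fitted log2 value of 9.34 against a floor of 9.28. miR-98 was detected on all arrays but mTEC replicate 2, and also passed the floor only on cTEC replicate 2.

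**Figure D1:**
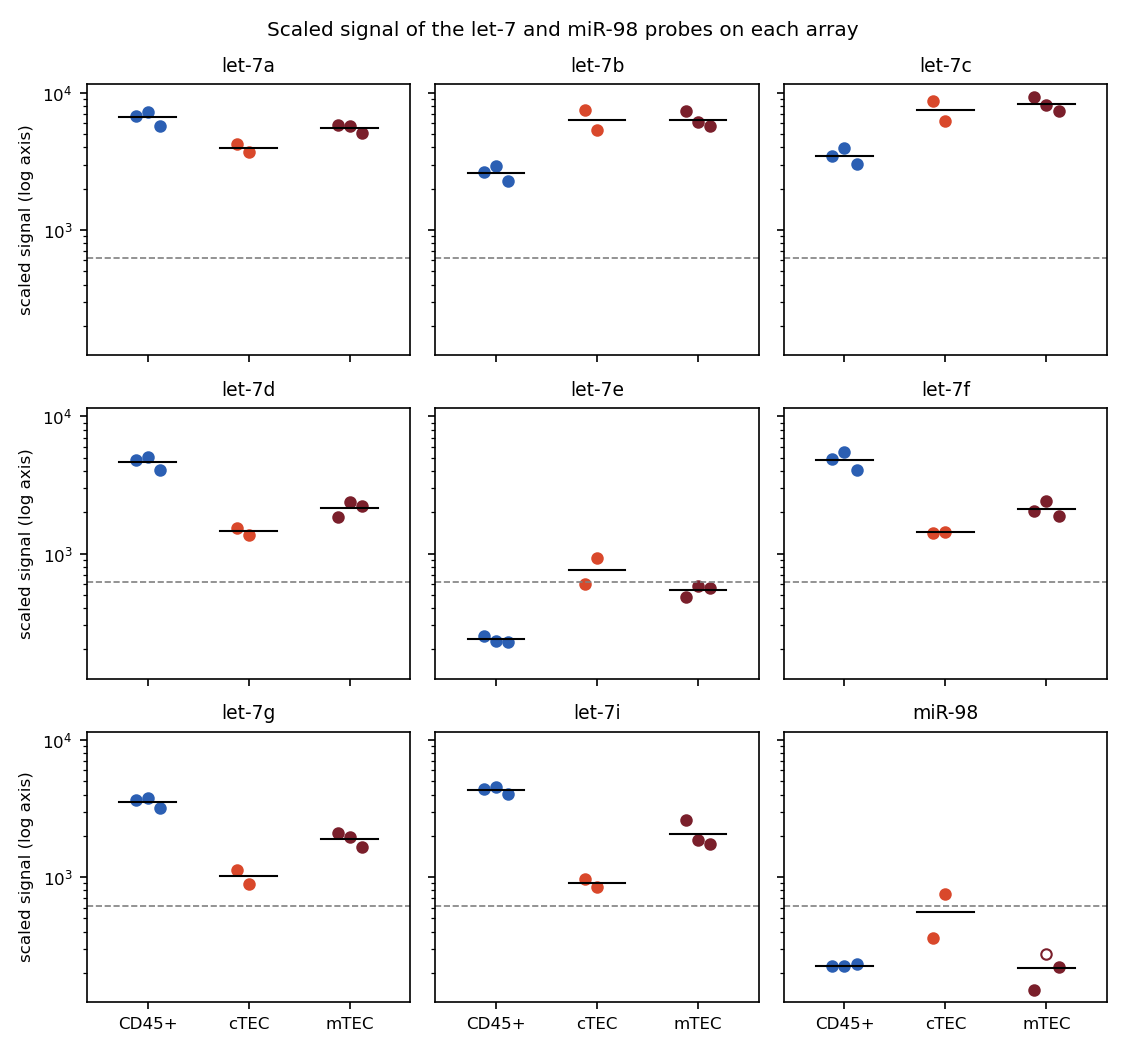
Scaled signal (log axis) of each member on every array, in 3 groups (CD45+, n = 3; cTEC, n = 2; mTEC, n = 3); bars are group means, the dashed line is the floor of 621 and the open point was not detected. let-7b and let-7c stand lower on the CD45+ arrays than on either epithelial group, let-7d, let-7f, let-7g and let-7i stand higher there, and let-7e and miR-98 lie mostly under the floor; panels are not to be compared with each other, and the cTEC points move against the CD45+ points with the scaling (let-7b and let-7c turn lower in cTECs when arrays are scaled over all mouse probes or not at all).

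let-7b and let-7c, which share a run of genes on chromosome 15, had higher signals in epithelium than in CD45+ cells. For let-7b the CD45+ arrays read 2626, 2932 and 2295, the cTEC arrays 7456 and 5321, and the mTEC arrays 7329, 6081 and 5756. For let-7c the CD45+ arrays read 3460, 3950 and 3010, the cTEC arrays 8721 and 6235, and the mTEC arrays 9356, 8212 and 7429. No epithelial array of either miRNA overlapped the CD45+ arrays, and the mTEC and cTEC arrays overlapped each other.

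let-7b was 2.44-fold higher in mTECs than in CD45+ cells (log2 fold change 1.29 ± 0.17 SE, adjusted p = 0.0017, limma). let-7c was 2.40-fold higher (1.27 ± 0.17, adjusted p = 0.0019, limma). In cTECs against CD45+ cells, let-7b was 2.42-fold higher (1.27 ± 0.19, adjusted p = 0.0026, limma) and let-7c 2.14-fold higher (1.10 ± 0.19, adjusted p = 0.0051, limma). These directions depend on the scaling for cTECs: when every mouse probe entered the percentile, let-7b was -0.60 and let-7c -0.78, and with no normalization they were -1.06 and -1.23, none past the threshold. In mTECs against CD45+ cells both stayed higher under those settings, at 0.45 and 0.42 and at 0.72 and 0.70, without passing the threshold. The deposited log2 table gave smaller changes in mTECs, 0.84 and 0.88, which passed it.

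let-7d, let-7f, let-7g and let-7i had lower signals in both epithelial groups than in CD45+ cells. let-7d read 4800, 5100 and 4041 on CD45+ arrays, 1526 and 1372 on cTEC arrays, and 1835, 2363 and 2237 on mTEC arrays. let-7f read 4891, 5522 and 4077, then 1423 and 1447, then 2048, 2420 and 1864 on the same arrays. For both, every CD45+ array was above every mTEC array, and every mTEC array above both cTEC arrays. let-7g read 3669, 3770 and 3175 on CD45+ arrays, 1137 and 894 on cTEC arrays, and 2098, 1969 and 1651 on mTEC arrays. let-7i read 4383, 4518 and 4049, then 962 and 848, then 2593, 1851 and 1753. The same order held for these, with the cTEC values of let-7i the nearest to the floor of the 7.

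In mTECs, let-7d was 2.17-fold lower than in CD45+ cells (log2 fold change -1.12 ± 0.13 SE, adjusted p = 0.0010, limma) and let-7f 2.28-fold lower (-1.19 ± 0.14, adjusted p = 0.0010, limma). let-7i was 2.12-fold lower (-1.08 ± 0.16, adjusted p = 0.0028, limma) and let-7g 1.86-fold lower (-0.90 ± 0.14, adjusted p = 0.0039, limma). let-7g lost its call under 6 and let-7i under 3 of the 23 alternatives run, with adjusted p up to 0.239 and 0.0858 (limma). In those settings let-7g ran from -1.74 (every mouse probe in the percentile) to -0.36 (deposited table). There let-7i ran from -1.65 (no normalization) to -0.94 (members left out of the percentile). let-7d and let-7f kept their calls under all 23, but their sizes moved. They were -1.96 and -2.03 with every mouse probe in the percentile, and -0.66 and -0.73 in the deposited table. The 5 tested blood markers were also lower in mTECs, by a median log2 fold change of -2.50. All of them but miR-181a sat at the floor on every mTEC array, so the floor limits that median.

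In cTECs the same members stood further under CD45+ cells. let-7i was 4.78-fold lower than in CD45+ cells (-2.26 ± 0.18, adjusted p = 1.54e-04, limma), let-7g 3.54-fold lower (-1.82 ± 0.16, adjusted p = 2.33e-04, limma), let-7f 3.35-fold lower (-1.74 ± 0.16, adjusted p = 2.82e-04, limma) and let-7d 3.20-fold lower (-1.68 ± 0.14, adjusted p = 2.33e-04, limma). All 4 kept direction and call under the 23 alternatives, but their sizes moved with the scaling. From no normalization to the deposited table, let-7i ran from -4.54 to -1.14 and let-7g from -4.09 to -0.92. let-7f ran from -4.07 to -0.83 and let-7d from -4.01 to -1.01. The 5 tested blood markers were lower in cTECs as well, with a median of -2.33, which the floor also limits.

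let-7a had smaller fold changes. Its signals were 6786, 7300 and 5776 on CD45+ arrays, 4264 and 3690 on cTEC arrays, and 5843, 5776 and 5060 on mTEC arrays. The mTEC and CD45+ arrays overlapped, and the cTEC arrays were below both. On CD45+ replicate 3 and mTEC replicate 2, let-7a was itself the percentile used for scaling (8323 and 4213 before scaling). Both arrays therefore read 5776 by construction, which enters the overlap and the fold changes. let-7a was 1.66-fold lower in cTECs than in CD45+ cells (-0.73 ± 0.12, adjusted p = 0.0048, limma), a call lost when the members were left out of the percentile (-0.68, adjusted p = 0.080, limma). Its difference between mTECs and CD45+ cells did not pass the threshold (-0.25, 95% interval -0.52 to 0.03, adjusted p = 0.23, limma). It did pass under quantile normalization (-0.59), in the deposited table (-0.48) and after normexp correction (-0.69). With the members left out of the percentile it was -0.10 and did not pass.

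let-7e and miR-98 were too dim for a fold change on the floored scale, where most of their values are the floor itself. let-7e read 253, 232 and 226 on CD45+ arrays, 599 and 922 on cTEC arrays, and 480, 576 and 559 on mTEC arrays. miR-98 read 224, 223 and 233 on CD45+ arrays, 362 and 747 on cTEC arrays, and 150, 277 and 220 on mTEC arrays. For let-7e every epithelial array was above every CD45+ array, and for miR-98 both cTEC arrays and mTEC replicate 2, where it was not detected, were. With the floor lowered to the lowest limit of any array, 67.0, let-7e was 2.28-fold higher in mTECs (1.19 ± 0.23, adjusted p = 0.0035, limma) and 3.15-fold higher in cTECs (1.65 ± 0.26, adjusted p = 7.83e-04, limma). The mTEC difference passed under that floor alone of the 23 alternatives. It was 0 on the common floor, 0.35 when every mouse probe entered the percentile (adjusted p = 0.53, limma), 0.63 with no normalization (0.23), 0.51 under quantile normalization (0.12), 0.36 after normexp (0.26) and 0.09 in the deposited table (0.19). On the lowest floor miR-98 was 2.26-fold higher in cTECs than in CD45+ cells (1.17 ± 0.37, adjusted p = 0.022, limma), and its mTEC difference was not past the threshold (-0.14, 95% interval -0.90 to 0.62, adjusted p = 0.75, limma). Other settings did call miR-98 lower in mTECs than in CD45+ cells, at -0.57 over all mouse probes (adjusted p = 6.59e-04, limma), -0.61 with no normalization (0.026) and -0.11 in the deposited table (0.015). Apart from those of cTEC replicate 2 itself, the signals of both miRNAs lie under the detection limit of that array, the dimmest, and on the lowest floor 45.3% of all tested miRNAs were called in mTECs and 72.5% in cTECs against CD45+ cells. In cTECs miR-98 was at 0.13 on the common floor. With other scalings, each with its own floor, miR-98 turned negative, at -0.49 over all mouse probes and -0.88 with no normalization, both past the threshold. It was 0.24 under quantile normalization (adjusted p = 0.016, limma) and -0.04 in the deposited table (0.37). let-7e on the common floor was at 0.31 in cTECs. Over all mouse probes and with no normalization, each with its own floor, let-7e was at -0.19 and -0.65, and none of the 3 passed the threshold. It was 1.14 under quantile normalization (adjusted p = 0.0074, limma) and 0.01 in the deposited table (0.90). Without cTEC replicate 1 it was 0.56 and without cTEC replicate 2 it was 0.06. Each of these sets 1 cTEC array against groups that are all at the floor with an SD of 0, where any value above the floor passes, so no p is given, and its size on that floor rests on which cTEC array is kept.

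In all, 6 of the 9 members were called between mTECs and CD45+ cells, 2 higher and 4 lower, where 23.9% of all 309 tested miRNAs were called. By direction the background was 9.06% higher and 14.9% lower. Between cTECs and CD45+ cells 7 of 9 were called, 2 higher and 5 lower, with 30.7% of all tested called, 10.7% higher and 20.1% lower. The split moved with the scaling. With every mouse probe in the percentile, 0 members were called higher and 4 lower in mTECs (110 of all 309 called), and 0 and 6 in cTECs (120). With no normalization it was 0 higher and 3 lower in mTECs (92), and 0 and 6 in cTECs (113). The median log2 fold change of the 9 members was -0.25 in mTECs and -0.73 in cTECs, and that of all tested miRNAs was 0 in both, since many sat at the floor. Over the 65 miRNAs detected on all arrays, the median was 0.02 in mTECs and 0.47 in cTECs, and under scaling over all mouse probes it was -0.50 and -0.78. In cTECs, let-7c itself then stood at that median, and let-7b, at -0.60, above it. Arrays that do not overlap were common among all tested miRNAs, 69.6% between mTECs and CD45+ cells and 82.5% between cTECs and CD45+ cells, against 7 and 9 of the 9 members. Between mTECs and cTECs it was 56% of all tested and 7 of the 9 members.

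**Figure D2:**
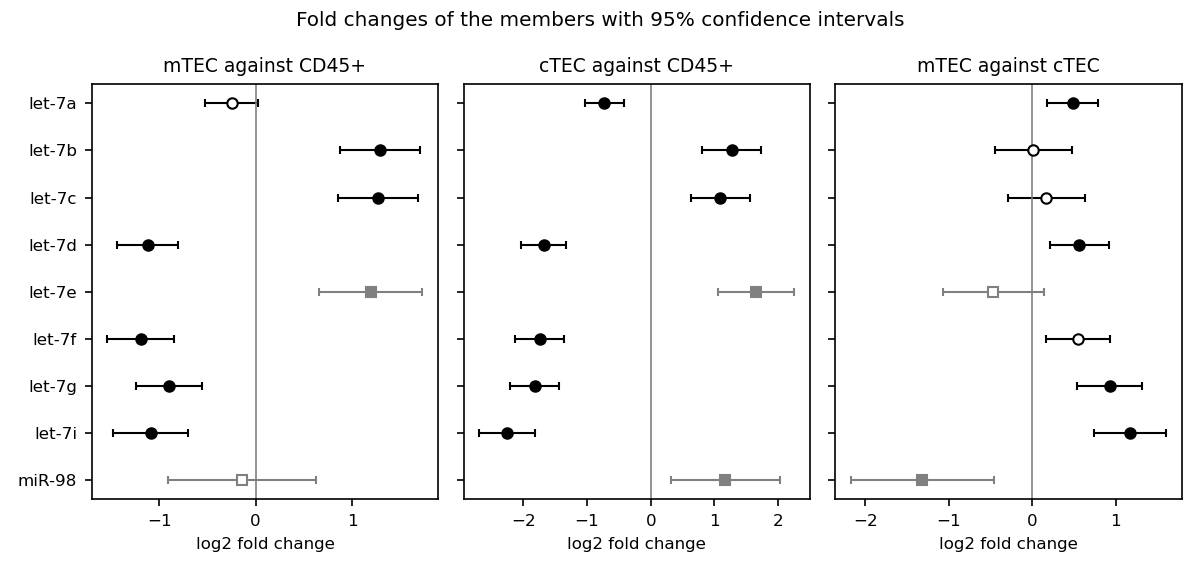
Log2 fold change of each member with its 95% confidence interval in the 3 comparisons; filled symbols passed an adjusted p of 0.05, circles are on the common floor of 621 and grey squares (let-7e and miR-98) on the lowest floor of 67.0. let-7b and let-7c lie at 1.10 to 1.29 on the right in both comparisons with CD45+ cells. let-7d, let-7f, let-7g and let-7i lie on the left. With arrays scaled over all mouse probes or not normalized, let-7b and let-7c turn to the left in cTECs. let-7e and miR-98 do so too, on the floors of those settings.

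Between the epithelial groups, let-7i, let-7g, let-7d and let-7a were higher in mTECs. let-7i was 2.25-fold higher in mTECs than in cTECs (1.17 ± 0.18, adjusted p = 0.0041, limma) and let-7g 1.90-fold higher (0.93 ± 0.16, adjusted p = 0.0069, limma). Both lost the call when every mouse probe entered the percentile (adjusted p = 0.098 and 0.12, limma) and under quantile normalization (0.055 and 0.12). The fold changes did not shrink there, at 2.15 and 1.89 and at 1.46 and 1.12. In the deposited table let-7g also lost the call (0.56, adjusted p = 0.073, limma). let-7d (0.56 ± 0.14, adjusted p = 0.038, limma) and let-7a (0.48 ± 0.12, adjusted p = 0.038, limma) passed narrowly, and lost the call in 16 and 13 of 23 alternatives. Over the 23, let-7d ran from 0.21 to 2.33 and let-7a from 0.24 to 2.25. Leaving out 1 array ended the let-7d call for CD45+ replicate 1 or 2, either cTEC array, or mTEC replicate 2 or 3 (adjusted p = 0.053 to 0.22, limma), and the let-7a call for CD45+ replicate 1, cTEC replicate 2, or mTEC replicate 1 or 2 (adjusted p = 0.072 to 0.23, limma). let-7f, at 0.55, did not pass (95% interval 0.17 to 0.93, adjusted p = 0.056, limma), and passed under 6 of 23 alternatives. let-7b and let-7c gave 0.01 (95% interval -0.45 to 0.47) and 0.17 (-0.29 to 0.63). In this comparison 4 of 9 members were called, all higher, where 22.7% of all tested miRNAs were called, 16.2% higher and 6.47% lower. On the lowest floor, where 41.7% of all tested were called, miR-98 was 2.49-fold lower in mTECs (-1.31 ± 0.37, adjusted p = 0.021, limma), and let-7e gave -0.46 (95% interval -1.07 to 0.14, adjusted p = 0.19, limma). On the common floor miR-98 was at -0.13 (adjusted p = 0.34, limma). It was lower under quantile normalization (-0.35, adjusted p = 0.0071, limma), did not pass in the deposited table (-0.07, 0.12) or when every mouse probe entered the percentile (-0.09, 0.52), and turned sign with no normalization (0.27, 0.33). The median of the members was 0.48, against 0 over all tested and -0.25 over the 65 miRNAs detected on every array. Without CD45+ replicate 1 or without mTEC replicate 2 the count was 2 (60 and 58 of all 309 called), and when every mouse probe entered the percentile it was 0 (39). In that last setting the fold changes of the 4 were larger, from 1.52 for let-7a to 2.15 for let-7i.

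The members were also compared with each other on each array, where the scaling between arrays cancels and only unequal change can be seen. Each array was centred on the mean log2 signal of the 7 members above the floor, a choice added after the data were seen, and the change of each member from that mean was taken. From CD45+ cells to mTECs, let-7b moved by 1.57 and let-7c by 1.55 from the family mean. let-7f moved by -0.91, let-7d by -0.83, let-7i by -0.80 and let-7g by -0.61. Departures from the mean of the 7 sum to 0 on each array, so values above and below the mean balance each other and are given with no p. let-7a moved by 0.04, with a 95% interval of -0.26 to 0.33. On this centring 23.0% of all tested miRNAs were called between these groups. With all 9 members in the mean, 2 of them mostly at the floor, 25.2% were called, and for the same reason no count of members is read on either centring. With all 9 the change from CD45+ cells stayed positive for let-7b and let-7c and negative for let-7d, let-7f, let-7g and let-7i in both epithelial groups under all 20 alternatives.

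From CD45+ cells to cTECs the same members moved up and down against the mean. let-7b moved by 2.11 and let-7c by 1.93 from the mean of the 7. let-7i moved by -1.42, let-7g by -0.99, let-7f by -0.90 and let-7d by -0.84, and let-7a moved by 0.11 (95% interval -0.23 to 0.44). A value at the floor shifts with the family mean by construction, and 94.2% of all tested miRNAs were called, or 93.9% with all 9 in the mean. Between mTECs and cTECs, let-7b moved by -0.54, let-7c by -0.38, let-7i by 0.62 and let-7g by 0.37 from the mean of the 7. let-7a moved by -0.07 (95% interval -0.40 to 0.26), let-7d by 0.01 (-0.37 to 0.39) and let-7f by -0.0043 (-0.37 to 0.36), so let-7a and let-7d, called higher in mTECs on the scaled signals, moved here about as the mean of the 7 did. Of all tested miRNAs, 90.6% were called, or 89.6% with all 9 in the mean. With all 9 in the mean, let-7b moved by -0.37, let-7c by -0.21, let-7i by 0.79 and let-7g by 0.54 between mTECs and cTECs. In the deposited table these were -0.19, 0.02, 0.34 and 0.32, so the sign for let-7c depends on the setting.

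**Figure D3:**
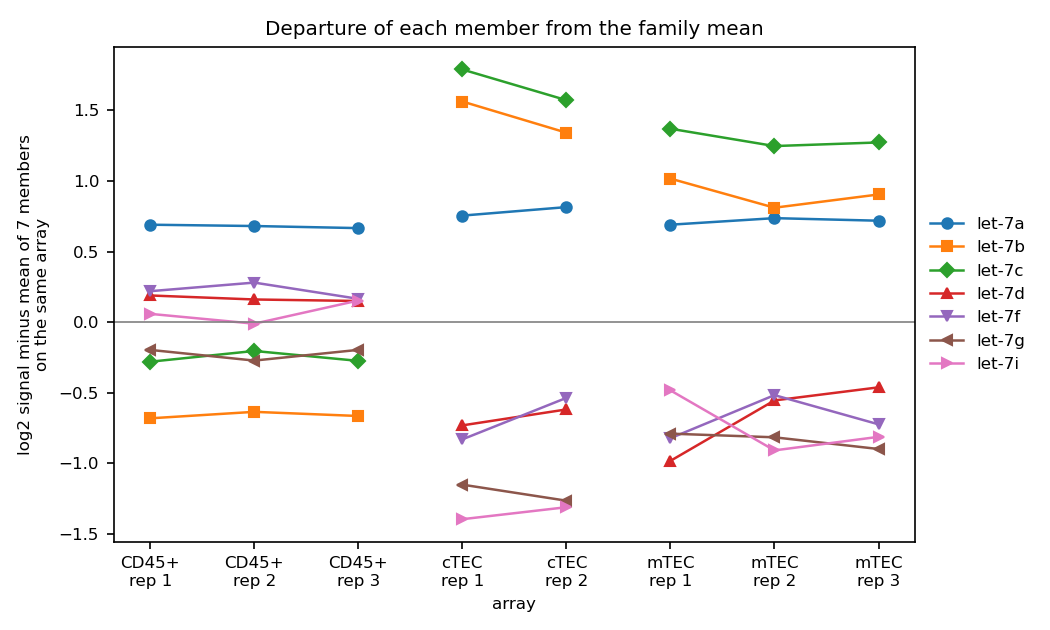
Log2 signal of 7 members minus their mean on the same array, for each of the 8 arrays; lines join arrays of 1 group and have no order in time. let-7b and let-7c stand higher on all 5 epithelial arrays than on the CD45+ arrays, let-7d, let-7f, let-7g and let-7i stand lower, and let-7a stays between 0.67 and 0.81; array scaling cancels in these values, and only changes of a line between groups can be read, not heights of different members.

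On CD45+ arrays let-7b stood at -0.68 to -0.63 from the mean of the 7, on mTEC arrays at 0.81 to 1.02 and on cTEC arrays at 1.34 to 1.56. let-7i stood at -0.01 to 0.15, at -0.91 to -0.48 and at -1.39 to -1.31 in the same order. Its cTEC and mTEC arrays did not overlap, nor did those of let-7b. let-7d ranged from -0.98 to -0.46 on mTEC arrays, the widest spread of the 7 in any group, and included both cTEC values.

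The pairs that differ by 1 base were compared by the ratio of their unscaled signals on each array. The log2 ratio of let-7c over let-7a (A19G) was -0.97, -0.89 and -0.94 on CD45+ arrays, 1.03 and 0.76 on cTEC arrays, and 0.68, 0.51 and 0.55 on mTEC arrays. The epithelial arrays were all above the CD45+ arrays, and the value itself, a ratio of different probes, is not read. The ratio was 2.85-fold higher in mTECs and 3.55-fold higher in cTECs than in CD45+ cells. The log2 ratio of let-7f over let-7a (G12A) went the other way, from -0.46 ± 0.05 (SD, n = 3) in CD45+ cells to -1.47 ± 0.16 (n = 2) in cTECs and -1.40 ± 0.13 (n = 3) in mTECs. That of let-7e over let-7a (U9G) went from -4.80 ± 0.16 to -2.42 ± 0.59 and -3.37 ± 0.22, with let-7e dim. The 5 epithelial arrays were compared with the 3 CD45+ arrays for 4 such pairs. Each of these 3 pairs gave p = 0.036 in a two-sided exact permutation test, the smallest this design allows (Benjamini-Hochberg adjusted p = 0.048). The test was not planned, and it pooled cTEC with mTEC arrays, as neither group alone has enough arrays to pass. The 3 pairs share let-7a, and the adjusted p is fixed once 3 of 4 pairs separate fully. It adds little to the separation of the arrays itself.

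let-7c over let-7b (G17A) moved less. Its log2 ratio was 0.41 ± 0.02 in CD45+ cells, 0.23 ± 0.0019 in cTECs and 0.38 ± 0.04 in mTECs (SD), and 5 epithelial against 3 CD45+ arrays gave p = 0.18 in the exact permutation test. Both cTEC arrays (0.23 each) were under every CD45+ array (0.39 to 0.43), while the mTEC arrays (0.35 to 0.43) overlapped them. With 2 against 3 arrays no exact test can pass the threshold. Members 1 base apart thus differed in change by 0.02 to 1.51 between mTECs and CD45+ cells, over the 3 such pairs above the floor. Pairs 2 bases apart differed by 0.19 to 2.46 (6 pairs) and pairs further apart by 0.03 to 2.48 (12 pairs). The ranges overlapped, with medians of 0.94, 0.76 and 2.17. Between cTECs and CD45+ cells the medians were 1.01, 1.02 and 2.85. Pairs share members, and this is a description of likeness in sequence beside likeness in change.

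**Figure D4:**
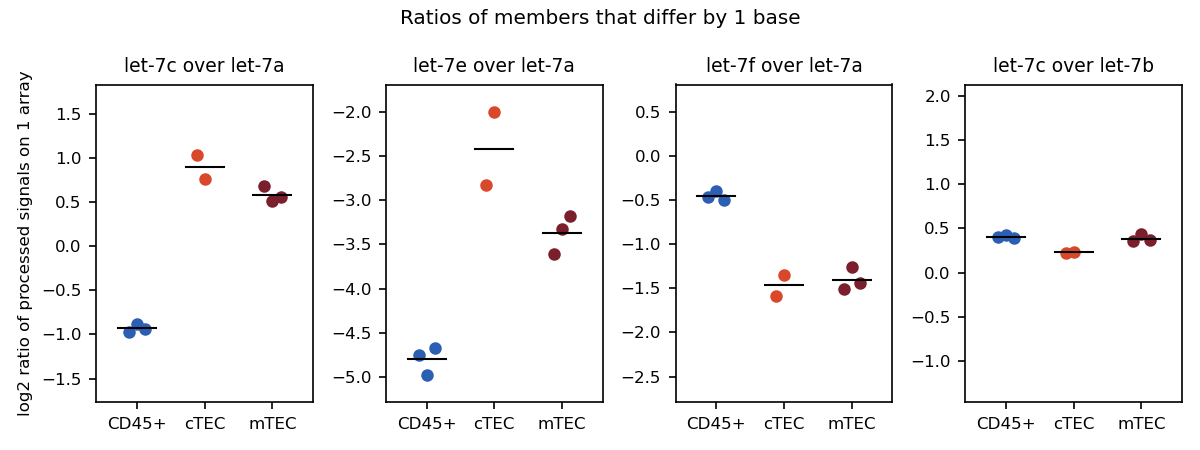
Log2 ratio of processed signals, before any scaling, for the 4 pairs of members 1 base apart, with a point per array and a bar at the group mean (CD45+, n = 3; cTEC, n = 2; mTEC, n = 3); every panel spans the same height. let-7c over let-7a and let-7e over let-7a rise from CD45+ to epithelial arrays, let-7f over let-7a falls, and let-7c over let-7b stays between 0.23 and 0.43.

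Over the 8 arrays, scaled log2 signals of let-7b and let-7c had Pearson r = 0.99, those of let-7g and let-7i 0.99, and those of let-7d and let-7f 0.99. let-7a had r of 0.87 to 0.96 with let-7d, let-7f, let-7g and let-7i. let-7b and let-7c had r of -0.49 to -0.88 with the other 5. These are descriptions over arrays of 3 groups that share scaling, with no test. Pairs from 1 genomic run were among both the alike (let-7b with let-7c, let-7d with let-7f) and the less alike (let-7a with let-7d, 0.87). Members also differ in base composition, from 7 to 10 G or C bases, and across the 7 the count of G and C had r = 0.61 with the mTEC against CD45+ fold change and 0.56 with the cTEC one. Over the 226 tested miRNAs not at the floor on all arrays, these were 0.15 and 0.37. For mTECs against cTECs the members had r = -0.36 and the 226 miRNAs r = -0.35. The part of base composition in the split was not tested.

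The 5 other miRNAs whose profile was most like the mean of the 8 members detected on all arrays, of 57 candidates, were miR-21 (r = 0.95 over 8 arrays), miR-26a (0.95), miR-16 (0.95), miR-155 (0.95) and miR-23a (0.92).

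miR-99/100 and miR-125 family members are encoded beside Mirlet7c-1, Mirlet7e and Mirlet7a-2, and 5 of them were listed as cluster partners. Of these 5, 2 were called higher and 0 lower in mTECs against CD45+ cells, 1 and 0 in cTECs against CD45+ cells, and 1 and 0 in mTECs against cTECs, beside the backgrounds given above. miR-125b-5p, encoded 46522 bp after Mirlet7c-1 and 45114 bp after Mirlet7a-2, read 374, 360 and 282 on CD45+ arrays, 8675 and 5048 on cTEC arrays, and 6227, 5159 and 5776 on mTEC arrays. Against the floor, under which all CD45+ arrays lay, it was higher by a log2 fold change of 3.20 ± 0.20 in mTECs (adjusted p = 5.98e-05, limma) and 3.41 ± 0.22 in cTECs (adjusted p = 7.76e-05, limma). Its 2 genes cannot be told apart by the mature strand.

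miR-99a, from the gene 656 bp before Mirlet7c-1, read 230, 225 and 194 on CD45+ arrays, 400 and 338 on cTEC arrays, and 1343, 1047 and 1056 on mTEC arrays. It was higher in mTECs than in CD45+ cells (0.87 ± 0.10, adjusted p = 9.37e-04, limma) and than in cTECs (0.87 ± 0.11, adjusted p = 0.0021, limma), both against groups at or near the floor. let-7c, from the same run, was at 0.17 between mTECs and cTECs. miR-125a-5p and miR-99b flank Mirlet7e, with gaps of 367 and 94 bp. miR-125a-5p was not well above background on any CD45+ array and was at least 7.85-fold higher in mTECs, and miR-100, beside Mirlet7a-2, at least 5.94-fold higher. Each was detected on 1 of 2 cTEC arrays. These bounds rest on the detection limits of the CD45+ arrays, with geometric means of 109.6 and 110.3, not on the common floor. In the fit on that floor neither passed the threshold (adjusted p = 0.091 and 0.34, limma), and on the lowest floor both did (3.45 and 3.17, adjusted p = 7.03e-05 each, limma). There all 5 partners were called higher in mTECs than in CD45+ cells and 3 in cTECs, where 24.6% and 45% of all tested were called higher. miR-99b was detected on 2 of 3 mTEC arrays and on no other.

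**Figure D5:**
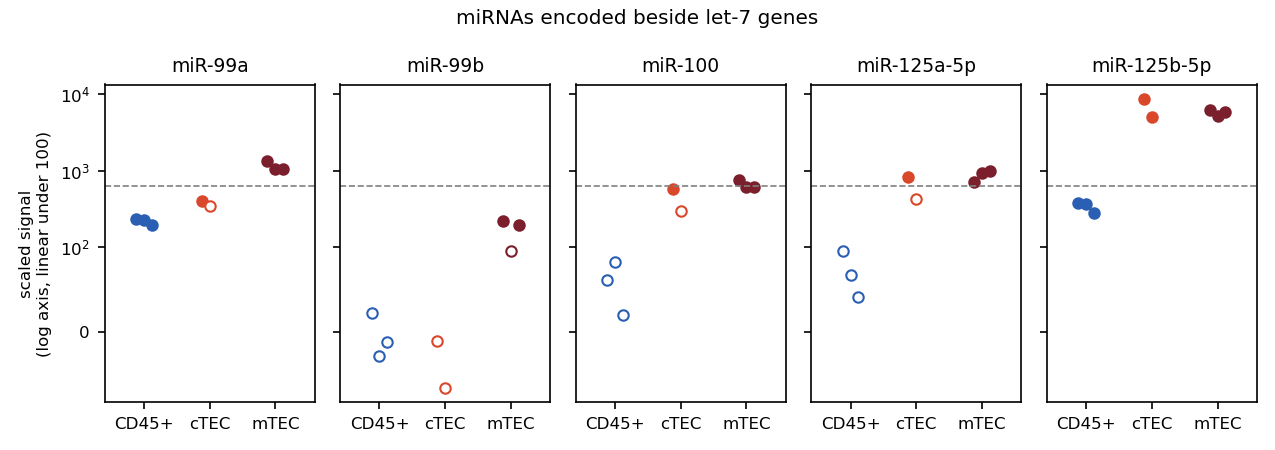
Scaled signal (axis logarithmic above 100 and linear under it) of the 5 miRNAs encoded beside let-7 genes on every array; open points were not detected and the dashed line is the floor of 621. miR-125b-5p lies under the floor on CD45+ arrays and at 5048 to 8675 on epithelial arrays, and miR-99a passes the floor on the 3 mTEC arrays alone.

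The other strand of the let-7 hairpins was at the edge of detection. Of 11 passenger strands of members in the table, 0 were detected on 2 or more arrays and none entered the fit. let-7d* was detected on mTEC replicate 2 alone, at a scaled signal of 1185, and let-7f-1* on mTEC replicate 3 alone, at 106.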

How the data were processed

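RNA labelled with Cy3 was hybridised to 8 custom Agilent 1-colour arrays, labelled biological replicates of 3 groups. The deposited scanner intensity values came from Feature Extraction 10.7.3.1 per the file headers. The authors also deposited a quantile-normalized log2 table, used only as an alternative. The submitters' processing notes name limma.

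Outlier spots were dropped, processed signals were scaled as described above, set to the floor and averaged over spots on log2. Of 1040 mouse miRNAs, 309 detected on at least 2 arrays were fitted with limma 3.58.1 in R 4.3.3 (3 group means, all 8 arrays, eBayes), with Benjamini-Hochberg adjustment over all 309 and a threshold of 0.05. Of these, 83 never rose above the floor, and were counted as unchanged in the adjustment. The code was tested on simulated data. The text names all 9 members, a seed sharer, the 5 most alike miRNAs, and the cluster partners and markers; 2 untested passenger strands were named after their values were seen. Members and lists were chosen with earlier results of these data known. Alternatives changed the scaling, floor, filter, spot summary, samples and block. The number of arrays limits the precision. Whether replicate numbers pair the samples was not settled, and the main fit did not use them. All arrays shared 1 slide.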

Additional observations from a re-analysis of the deposited data

How the results depend on the processing

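Between mTECs and CD45+ cells, 6 members were called under every alternative that left out an array (6 to 6), and 3 with no normalization between arrays, where 92 of 309 tested miRNAs were called against 74. Between cTECs and CD45+ cells the range without 1 array was 7 to 9. The 9 came without cTEC replicate 1, where 170 of all 309 were called against 95, and its additions, let-7e and miR-98, set 1 array against groups at the floor with no spread. Between mTECs and cTECs it was 2 to 5, the count being 2 without CD45+ replicate 1 or mTEC replicate 2 (60 and 58 of all 309 called, against 70) and 5 without CD45+ replicate 3 (63). Without cTEC replicate 1, let-7e (-0.56) and miR-98 (-0.25) were lower in mTECs, again from 1 array against groups at the floor with no spread. No count is read there. The mTEC against cTEC count, 4 in the report, was 0 when the percentile was over all mouse probes, 1 under quantile normalization (miR-98, lower, and none of the 4) and 1 in the deposited table. It was 2 after normexp, 2 with no filter on dim probes and 2 with the 2 groups alone. All called in those settings were, in order, 39, 69, 83 and 119 of 309, 54 of 1040, and 51 of 309. Over all mouse probes the fold changes of the 4 were larger than in the report, at 1.52 (let-7a), 1.60 (let-7d), 1.89 (let-7g) and 2.15 (let-7i), although none was called. Relative to the mean of all 9 members, 25.2%, 93.9% and 89.6% of all tested miRNAs were called in the 3 comparisons. Departures balance by construction there, so counts of members are not read as results, and the counts were 6, 8 and 5. Without 1 array they were 6 to 6, 8 to 8 and 2 to 6 in the same order of comparisons, the 2 being without cTEC replicate 2. For mTECs against cTECs the count of 5 became 3 in the deposited table, after normexp, on the lowest floor and among miRNAs detected on all 8 arrays. The cause of these moves was not tested. Where either value was past the threshold, directions reversed in cTECs against CD45+ cells alone, and 22 values past it under neither setting also changed sign. let-7b was -0.60 with scaling over all mouse probes and -1.06 with no normalization (adjusted p = 0.70 and 0.31, limma). let-7c was -0.78 and -1.23 (0.54 and 0.22), and miR-98 -0.49 and -0.88 (0.0012 and 0.0059). Same-numbered arrays of different groups had correlations of deviations from -0.22 to 0.28, over 0.1 in 3 of 7 pairs. Other pairs ran from -0.34 to 0.28, over 0.1 in 5 of 14. Deviations of the 2 cTEC arrays mirror each other by construction. These values cannot decide whether replicate numbers pair the samples. With the replicate block, 6, 7 and 4 members were called in the 3 comparisons, where 69, 86 and 60 of all 309 were called. Relative to the family mean the counts stayed 6, 8 and 5, and are not read as results. In mTECs against cTECs the block ended the call of let-7d (adjusted p = 0.10, limma) and brought one for let-7f (0.65, adjusted p = 0.0053, limma). Signal over background limits let-7e and miR-98, and the dim cTEC arrays limit every cTEC value.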
